A study of Spodoptera exigua with 2 samples.

Results

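The genes described are 8 loci assigned to the Toll immune pathway of the beet armyworm Spodoptera exigua, out of 13002 genes in the count matrices of its hemocytes, the circulating blood cells. SPEXI_LOCUS78, SPEXI_LOCUS4684, SPEXI_LOCUS4652 and SPEXI_LOCUS1095 are Toll receptors, SPEXI_LOCUS11397 is MyD88 and SPEXI_LOCUS6804 is Pelle. SPEXI_LOCUS11477 and SPEXI_LOCUS11478 are listed for Dorsal and IκB. The sources used here do not say which locus has which name, or whether both loci have the same name. Nor do they say which Toll receptor is which, so these loci are called by number. The loci were chosen by this assignment, with earlier results of these data known.

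There were 2 groups of newly molted fifth-instar larvae, both injected and kept at room temperature for 8 h. Challenged larvae each received 140000 heat-killed Escherichia coli cells, and naive larvae received phosphate-buffered saline. Pooled hemolymph of each group gave 1 single-cell library (10x Genomics 3′ chemistry), in which unique molecular identifiers (UMIs) count captured mRNA molecules. With 1 library per group no difference between the groups could be tested, and there is no replicate error. Intervals are 95% intervals of counting alone.

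In insects, the Toll pathway is best known from Drosophila. Recognition proteins, including peptidoglycan recognition proteins (PGRPs), start a protease cascade in the hemolymph that cleaves the cytokine spätzle, which then binds a Toll receptor. The receptor acts through the adaptor MyD88 and the kinase Pelle, the inhibitor IκB (Cactus in Drosophila) is degraded, and the transcription factor Dorsal enters the nucleus, where it acts on antimicrobial peptide genes. Hemocytes can both secrete components of the cascade and respond to it.

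The challenged library held 12524 cells with 200 to 6000 genes (median depth 5282 UMIs), and the naive library 14840 such cells (median depth 3347 UMIs). They shared 44 cell barcodes, and without those cells the log2 ratio of SPEXI_LOCUS11477 over all cells was -0.62 in place of -0.61, the ratios of the other genes moving as little. Cells were put into classes by marker genes. A cell was PPO-high, cathepsin-high or SPARC-high when the prophenoloxidases PPO1 and PPO2, the proteases procathepsin H and cysteine proteinase 1-like, or the matrix protein gene SPARC took at least 3 times the share of its UMIs that they took over all cells. There were 730 challenged and 587 naive PPO-high cells, 3133 and 2793 cathepsin-high cells, 780 and 1882 SPARC-high cells, and 7839 and 9520 other cells, while 42 and 58 cells passed 2 limits and were kept apart. The SPARC-high class is a range rather than a type, since a further 1291 challenged and 1283 naive cells lay between 2 and 3 times. Hemocytin, a hemocyte lectin, had 3306 CPM in the challenged library and 3506 CPM in the naive library, where CPM is UMIs summed over cells and scaled to 1000000 UMIs of all genes. Transcripts of muscle, which a hemolymph sample can carry, differed between the libraries, with 38.5 CPM of troponin I in the challenged library and 65.2 CPM in the naive library, 7.44 and 20.8 CPM of troponin T, and 15.1 and 28.0 CPM of myosin regulatory light chain 2. Troponin T was found in 125 challenged and 226 naive cells. In cathepsin-high cells the gap was wider, with 4.44 CPM of troponin T in challenged and 86.5 CPM in naive cells, 6.86 and 86.3 CPM of troponin I, and 10.2 and 60.0 CPM of myosin regulatory light chain 2, but most of the naive UMIs lay in a single cell for each gene (447 of 464, 368 of 463 and 292 of 322 UMIs). The part of such transcripts in any difference between the libraries was not tested. The cells were also clustered with the 8 genes left out, which gave 31 clusters, numbered 0 to 30 by size, that describe where within a class a gene lay.

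The 8 genes were rare transcripts. Together they had 9843 UMIs in the challenged library (104 CPM) and 8635 UMIs in the naive library (106 CPM). At least 1 UMI of any of them was found in 44.0% of challenged and 34.3% of naive cells, with the challenged library the deeper. Most cells with a gene held 1 UMI of it, and no cell held more than 9 UMIs of any. SPEXI_LOCUS1095 had 1 UMI in the challenged library and 4 UMIs in the naive library, all in cells of the other class. Its level was too low for any comparison, so the results below rest on 7 genes.

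Of the genes for spätzle, the ligand of the pathway, only SPEXI_LOCUS12010 was analysed here, and it was highest in cathepsin-high cells. It had 2142 CPM in challenged and 1761 CPM in naive cathepsin-high cells, against 343 and 322 CPM in the other class, 45.2 and 54.8 CPM in PPO-high cells and 14.1 and 18.7 CPM in SPARC-high cells. Within the cathepsin-high class it was 2.66 times as high in cluster 3 as in cluster 0 in the challenged library (interval 2.55 to 2.77) and 2.53 times as high in the naive library (interval 2.42 to 2.64). Clusters 3 and 0 held 42.1% and 36.3% of challenged cathepsin-high cells, against 20.2% and 55.6% of naive ones.

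The receptor SPEXI_LOCUS4684 was highest in cathepsin-high cells. It had 34.2 CPM in challenged cathepsin-high cells (254 UMIs, interval 30.1 to 38.7) and 39.9 CPM in naive ones (214 UMIs, interval 34.7 to 45.6). All other cells of the library together had 3.31 CPM in the challenged and 3.16 CPM in the naive library, which made cathepsin-high cells 10.3-fold higher (interval 8.69 to 12.3) and 12.6-fold higher (interval 10.4 to 15.2). It was the only 1 of the 7 genes to reach a level 2-fold above all other cells in the cathepsin-high class, in either library, whereas 7.19% of all genes in the challenged and 5.53% in the naive library did so. Only 0.838% and 0.619% of genes had a larger fold in that class than SPEXI_LOCUS4684. The class held 46.9% of its UMIs in the challenged and 47.1% in the naive library.

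In the remaining classes SPEXI_LOCUS4684 was low. The other class had 3.81 CPM in challenged and 3.57 CPM in naive cells, the SPARC-high class 1.94 and 1.82 CPM, and the PPO-high class 0.326 and 1.51 CPM, from 3 challenged and 9 naive UMIs. The order of the classes was thus cathepsin-high, other, SPARC-high and PPO-high in both libraries. The intervals of the other and SPARC-high classes overlapped in the challenged library, and those of the SPARC-high and PPO-high classes in the naive library. The procathepsin H and cysteine proteinase 1-like transcripts, which mark the cells where SPEXI_LOCUS4684 was highest, were found in PPO-high cells at 0.518% of their own-class level in the challenged library and 0.367% in the naive library, a measure of free RNA in the droplets. Cells with at least 1000 UMIs were also thinned to 1000 UMIs, which left out 169 challenged and 409 naive cathepsin-high cells. Of those thinned, 3.81% of challenged (interval 3.15 to 4.57) and 3.78% of naive cathepsin-high cells (interval 3.05 to 4.62) held a UMI of SPEXI_LOCUS4684. Of challenged PPO-high cells 0 of 704 did, which at 3 counts allows a share of up to 0.426% (exact upper limit 0.523%). Of naive PPO-high cells 1 of 561 did (interval up to 0.989%). Leaving out the 50 most abundant genes from the totals gave log2 folds of 3.84 and 4.17 in place of 3.37 and 3.66.

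Across the clusters of at least 50 cells, SPEXI_LOCUS4684 had between 21.1 and 107 CPM in the 5 cathepsin-rich clusters of the challenged library and between 22.0 and 147 CPM in the 4 of the naive library. Cluster 16, a small cathepsin-rich cluster, was highest in both libraries, with 107 CPM in 281 challenged cells (interval 77.2 to 144) and 147 CPM in 235 naive cells (interval 109 to 195). A cluster low in cathepsin transcripts also had a high level. Cluster 14 had 20.4 CPM in 322 challenged cells (interval 15.3 to 26.7) and 23.1 CPM in 270 naive cells (interval 16.5 to 31.5), with cathepsin transcripts at 0.17 times their level over all cells.

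The receptor SPEXI_LOCUS78 was the most widespread of the 4. Its level was 42.3 CPM in challenged cathepsin-high cells (314 UMIs, interval 37.7 to 47.2) and 32.6 CPM in naive ones (175 UMIs, interval 28.0 to 37.8). The other class followed with 23.3 and 19.3 CPM, the SPARC-high class with 21.4 and 16.1 CPM, and the PPO-high class was lowest with 12.2 and 8.04 CPM. The intervals of the other and SPARC-high classes overlapped, and the remaining neighbours in this order did not. Cathepsin-high cells were 1.92-fold above all other challenged cells (interval 1.70 to 2.17) and 1.83-fold above all other naive cells (interval 1.55 to 2.14), and PPO-high cells were at 0.491 and 0.408 of the level in theirs. The cathepsin-high fold depended on depth and scaling, with log2 values between 0.59 and 1.42 in the challenged library and between 0.25 and 1.39 in the naive library, against 0.94 and 0.87 as given here.

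**Figure D1:**
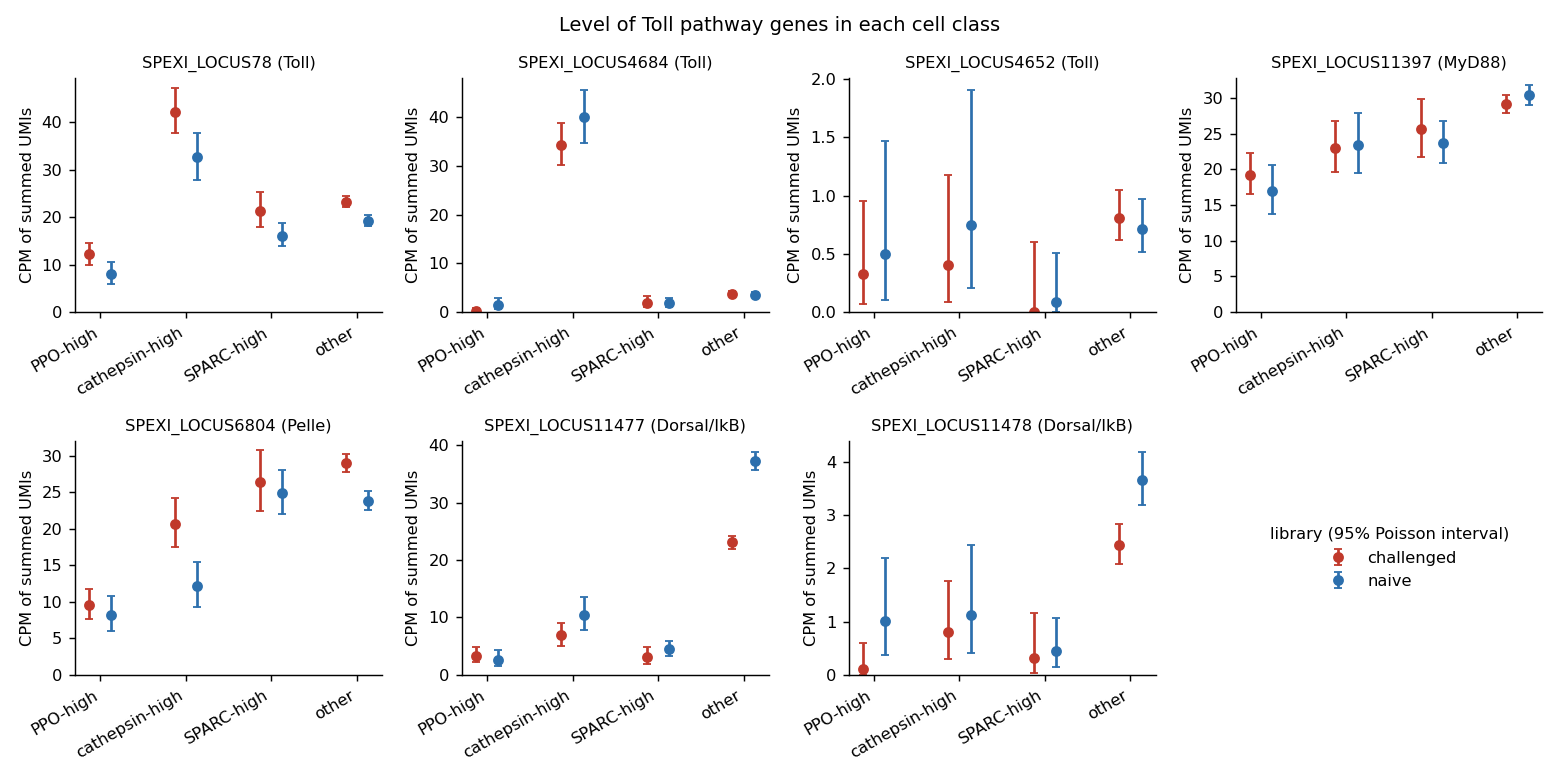
Level of 7 Toll pathway genes in 4 cell classes, as CPM of summed UMIs on linear axes that differ between panels, with challenged cells in red to the left of naive cells in blue and bars for 95% Poisson intervals. SPEXI_LOCUS4684 stands at 34.2 and 39.9 CPM in cathepsin-high cells and below 4 CPM elsewhere, while SPEXI_LOCUS11477 stands at 23.1 and 37.3 CPM in the other class.

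Although both receptors were highest in cathepsin-high cells, they were not highest in the same ones. SPEXI_LOCUS78 had 58.9 CPM in cluster 3 and 25.5 CPM in cluster 0 among challenged cells, or 2.31 times as much (interval 1.71 to 3.15). Naive cells had 67.2 CPM in cluster 3 and 20.7 CPM in cluster 0, which gave 3.25 (interval 2.27 to 4.68). SPEXI_LOCUS78 was thus higher in the cluster with more of the spätzle locus SPEXI_LOCUS12010. For SPEXI_LOCUS4684 the order was the opposite, with 23.5 CPM in cluster 3 and 50.6 CPM in cluster 0 among challenged cells, or 0.463 times as much (interval 0.342 to 0.624). In the naive library it had 26.1 CPM in cluster 3 and 47.7 CPM in cluster 0, a ratio of 0.548 (interval 0.351 to 0.828). These ratios describe clusters drawn from the same cells and are not a test. Clusters 3 and 0 had median depths of 2297 and 1721 UMIs in the challenged library and 1783 and 1647 UMIs in the naive library. Cluster 16 held both receptors, with 49.6 CPM of SPEXI_LOCUS78 in challenged cells and 33.1 CPM in naive cells. A high level of SPEXI_LOCUS78 was not confined to cathepsin-rich clusters. Cluster 2, of the other class, had 40.2 CPM in 456 challenged cells and 62.3 CPM in 1985 naive cells, where it was second to cluster 3.

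**Figure D2:**
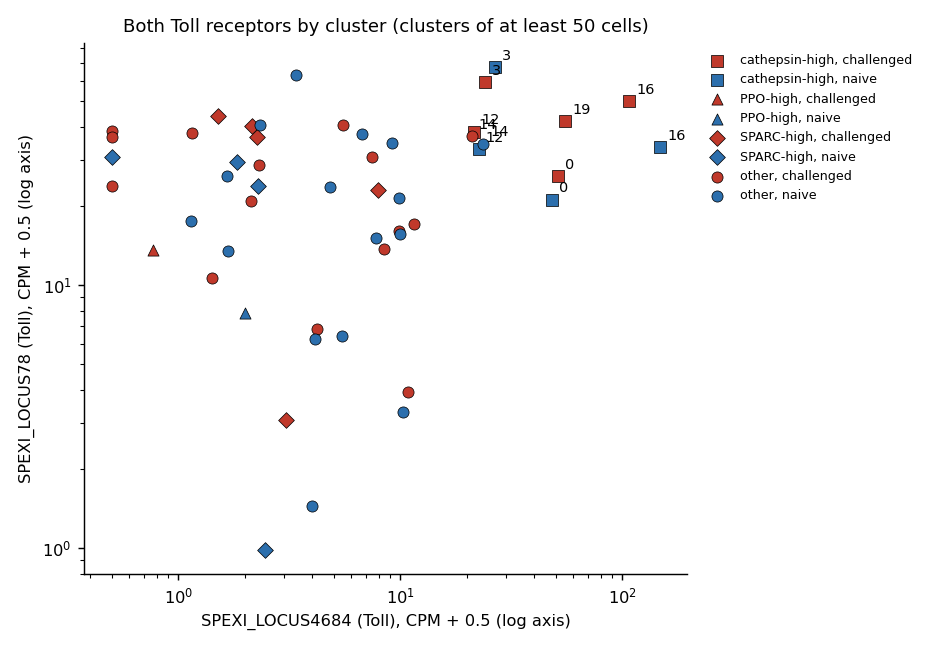
Level of SPEXI_LOCUS78 against that of SPEXI_LOCUS4684 in each cluster of at least 50 cells, both as CPM + 0.5 on log axes, with red for challenged and blue for naive cells and the symbol for the class of the cluster at 1.5 times the marker level of all cells. Cathepsin-rich clusters (squares) lie to the right, cluster 3 is higher on the vertical axis and cluster 0 further to the right, and cluster 14 is the circle among the squares.

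Few cells held UMIs of 2 receptors. At least 1 Toll UMI was found in 2302 challenged cells (18.4%) and 1771 naive cells (11.9%). Of these, 67 challenged and 43 naive cells held 2 different receptors, and no cell held 3. SPEXI_LOCUS78 and SPEXI_LOCUS4684 met in 56 challenged cells, where the product of their shares within bands of cell depth gives 60.6, a ratio of 0.924 (interval 0.698 to 1.20). In the naive library they met in 42 cells against a product of 38.5, a ratio of 1.09 (interval 0.786 to 1.47). Within cathepsin-high cells the numbers were 17 against 18.3 in the challenged library and 13 against 10.8 in the naive library. Each of the intervals over all cells includes 1, and at this depth they also leave room for a departure in either direction.

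SPEXI_LOCUS4652, the third receptor, had 64 UMIs in 47 challenged cells and 50 UMIs in 44 naive cells. The other class held 90.6% of these UMIs in the challenged and 84.0% in the naive library, and SPARC-high cells held 0 and 1 UMI. Of the UMIs of all genes, the other class held 71460979 of 94496277 in the challenged and 58560915 of 81236890 in the naive library. Its level of SPEXI_LOCUS4652 was 3.12-fold above all remaining challenged cells (interval 1.35 to 8.84) and 2.03-fold above all remaining naive cells (interval 0.943 to 5.01). Cluster 18 had 33.2 CPM in 79 challenged cells (interval 12.2 to 72.2, 6 UMIs) and 21.8 CPM in 414 naive cells, while 13 of 26 challenged and 11 of 25 naive clusters had none. Cluster 18 was shallow, with median depths of 1068 and 925 UMIs, and had PPO transcripts at 0.51 of their level over all cells. The challenged over naive ratio of SPEXI_LOCUS4652 over all cells was 1.10 (interval 0.748 to 1.63), but with each cell given the same weight the log2 ratio was -1.13.

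MyD88, the adaptor of the receptors, was the most even of the genes. SPEXI_LOCUS11397 had 19.2 CPM in challenged and 16.9 CPM in naive PPO-high cells, 23.0 and 23.5 CPM in cathepsin-high cells, 25.6 and 23.7 CPM in SPARC-high cells, and 29.1 and 30.4 CPM in other cells. The other class was thus 1.31-fold above the remaining cells in the challenged library (interval 1.19 to 1.45) and 1.40-fold in the naive library (interval 1.26 to 1.55). The intervals of neighbouring classes in this order overlapped, except those of the SPARC-high and other classes in the naive library. Cluster 14, which held SPEXI_LOCUS4684 with few cathepsin transcripts, was also among the highest for MyD88, with 61.3 CPM in challenged and 57.2 CPM in naive cells.

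Pelle, the kinase that acts after MyD88, varied more. SPEXI_LOCUS6804 had 9.56 CPM in challenged and 8.20 CPM in naive PPO-high cells, at 0.340 and 0.355 of the level in all other cells. SPARC-high cells had 26.4 and 25.0 CPM and other cells 29.1 and 23.9 CPM, with overlapping intervals within each library. Cathepsin-high cells had 20.7 CPM in the challenged and 12.1 CPM in the naive library. Cluster 1, the largest SPARC-rich cluster, had 65.8 CPM in 589 challenged cells and 37.9 CPM in 2090 naive cells. Cluster 4, another SPARC-rich one, had 20.4 and 15.4 CPM. The highest levels lay in clusters of the other class. These were 163 CPM in cluster 28 (interval 65.5 to 336) and 82.3 CPM in cluster 23 among challenged cells. Among naive cells they were 50.9 CPM in cluster 18 and 46.1 CPM in cluster 17.

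SPEXI_LOCUS11477 and SPEXI_LOCUS11478, listed for Dorsal and IκB without a name for each, lay almost entirely outside the marked classes. SPEXI_LOCUS11477 had 23.1 CPM in challenged other cells (1649 UMIs, interval 22.0 to 24.2) and 37.3 CPM in naive other cells (2182 UMIs, interval 35.7 to 38.9). PPO-high cells had 3.37 and 2.68 CPM, SPARC-high cells 3.08 and 4.47 CPM and cathepsin-high cells 6.86 and 10.4 CPM. The other class held 94.2% of its UMIs in the challenged and 94.7% in the naive library, at 5.26 times the level of all remaining cells (interval 4.30 to 6.50) and 6.93 times (interval 5.77 to 8.38). SPEXI_LOCUS11478, with 183 UMIs in the challenged and 231 UMIs in the naive library, lay in the same class. It had 2.43 CPM in challenged and 3.65 CPM in naive other cells and between 0.109 and 1.12 CPM in every marked class of either library.

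With SPEXI_LOCUS4652, the genes 2-fold above all remaining cells in the other class numbered 3 of 7 in both libraries. The naive fold of SPEXI_LOCUS4652, 2.03, had an interval of 0.943 to 5.01. Over all genes, 27.4% in the challenged and 34.5% in the naive library were 2-fold above all remaining cells, so that such a fold was common. In PPO-high cells 6 of the 7 genes in the challenged and 5 of 7 in the naive library were at least 2-fold below all other cells. Over all genes 43.1% and 57% were, so that a lower level of this size was common too. Of the 6, SPEXI_LOCUS4652 rested on 3 UMIs in PPO-high cells, at 0.456 (interval 0.0914 to 1.40). SPEXI_LOCUS78 was close to the limit, at 0.491 (interval 0.402 to 0.593). The gene that did not fall below this fold in either library was MyD88. None of the 7 was 2-fold higher in PPO-high cells, where 3.51% and 3.01% of genes were, or in SPARC-high cells, where 4.31% and 4.74% were. In SPARC-high cells 4 of the 7 were at least 2-fold lower in each library, against 28.4% of genes in the challenged and 35.2% in the naive library, namely SPEXI_LOCUS4684, SPEXI_LOCUS4652, SPEXI_LOCUS11477 and SPEXI_LOCUS11478. In cathepsin-high cells 2 of the 7 were at least 2-fold lower in each library, SPEXI_LOCUS11477 and SPEXI_LOCUS11478, against 37.3% and 35.1% of genes. In the other class SPEXI_LOCUS4684 alone was at least 2-fold lower, as 4.26% and 3.74% of genes were.

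Within the other class SPEXI_LOCUS11477 was far from even. Cluster 23 had 244 CPM in 166 challenged cells (92 UMIs, interval 197 to 300) and 144 CPM in 125 naive cells (76 UMIs, interval 114 to 181). Cluster 17 had 141 and 105 CPM, cluster 11 had 72.9 and 76.6 CPM, cluster 2 had 62.0 and 80.6 CPM, and cluster 5 had 53.6 and 65.2 CPM. At the other end, clusters 20 and 21 of the same class had no UMI in 93 and 38 challenged cells and 1.98 and 1.59 CPM in naive cells. No SPARC-rich or PPO-rich cluster of at least 50 cells was above 7.09 CPM in the challenged or 12.8 CPM in the naive library. Some of the high clusters were shallow. Cluster 23 had median depths of 1091.5 UMIs in challenged and 3094 UMIs in naive cells. Clusters 2, 17 and 18 had median depths of 1003, 1300 and 1068 UMIs in the challenged library and 821, 1264 and 925 UMIs in the naive library, with PPO transcripts at 0.59, 0.42 and 0.51 of their level over all cells. Clusters 5, 8 and 11 had higher depths, between 5553 and 24349 UMIs in the challenged and between 6599 and 18232 UMIs in the naive library, and PPO transcripts at no more than 0.09 of that level.

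**Figure D3:**
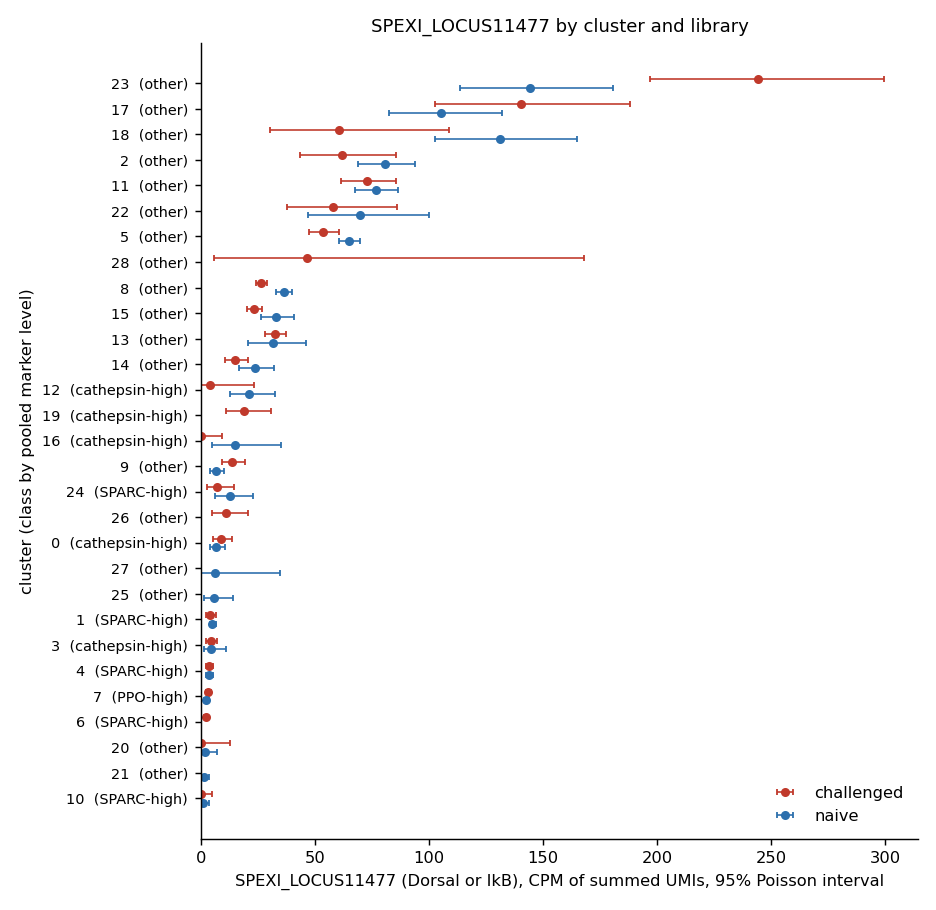
Level of SPEXI_LOCUS11477 in each cluster of at least 50 cells, as CPM of summed UMIs with 95% Poisson intervals, challenged in red above naive in blue, with the class of the cluster at 1.5 times the marker level of all cells. The upper clusters, from 23 at 244 and 144 CPM downwards, are past none of the marker limits. The SPARC-rich and PPO-rich clusters lie low, as do cluster 20 of the other class and the cathepsin-rich cluster 3.

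The level of SPEXI_LOCUS11478 followed that of SPEXI_LOCUS11477 over the clusters, with a Pearson r of 0.78 for log2(CPM + 5) over 51 clusters of a library, the highest among pairs of the 8 genes. The next was SPEXI_LOCUS6804 with SPEXI_LOCUS11477 at 0.53, and SPEXI_LOCUS78 with SPEXI_LOCUS4684 was at 0.25. These values describe clusters that share libraries and depths. Among 6850 genes with at least 500 UMIs, the one most like SPEXI_LOCUS11477 was SPEXI_LOCUS3342 (r = 0.91), and the one most like SPEXI_LOCUS4684 was SPEXI_LOCUS1760 (r = 0.85). The sources used here name neither.

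The same pair was also found in the same cells. SPEXI_LOCUS11477 and SPEXI_LOCUS11478 met in 80 challenged cells against a depth-matched product of 43.7, a ratio of 1.83 (interval 1.45 to 2.28), and in 106 naive cells against 49.1, a ratio of 2.16 (interval 1.77 to 2.61). Cells with SPEXI_LOCUS11478 thus held SPEXI_LOCUS11477 in 44.9% of challenged and 49.3% of naive cases. Within the other class alone the ratios were lower, at 1.59 in the challenged library (interval 1.26 to 1.98) and 1.87 in the naive library (interval 1.53 to 2.27). The locus numbers are consecutive, and whether reads of one could be counted for the other was not tested. SPEXI_LOCUS6804 and SPEXI_LOCUS11478 followed, with ratios of 1.49 (interval 1.17 to 1.87) and 1.63 (interval 1.26 to 2.08). The deepest band, above 16000 UMIs, has no upper limit, so that depth was not matched within it. It held 108 of the 183 challenged and 85 of the 231 naive UMIs of SPEXI_LOCUS11478. How far this raised the ratios of the pairs with SPEXI_LOCUS11478 was not tested. MyD88 and Pelle met in 531 challenged cells against 489, a ratio of 1.09 (interval 0.996 to 1.18), and in 369 naive cells against 311, a ratio of 1.19 (interval 1.07 to 1.31).

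**Figure D4:**
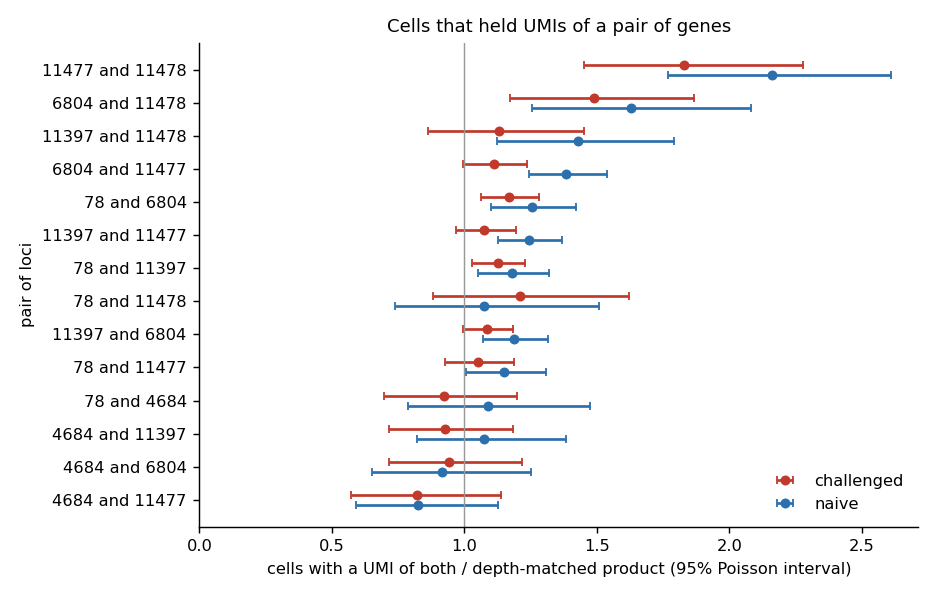
Number of cells with at least 1 UMI of both genes of a pair, divided by the product of their shares within depth bands, on a linear axis with 95% Poisson intervals, challenged in red above naive in blue, for pairs whose product was at least 10 in both libraries. SPEXI_LOCUS11477 with SPEXI_LOCUS11478 is at the top at 1.83 and 2.16, and the pairs of SPEXI_LOCUS4684 lie around 1 with intervals that include it.

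Between the groups, the receptor SPEXI_LOCUS78 was somewhat higher in the challenged library. It had 23.6 CPM in challenged cells (2227 UMIs, interval 22.6 to 24.6) and 18.8 CPM in naive cells (1530 UMIs, interval 17.9 to 19.8), a ratio of 1.251 (interval 1.17 to 1.34). Each class showed this direction, with ratios of 1.51 in PPO-high cells (interval 1.07 to 2.17), 1.30 in cathepsin-high cells (interval 1.07 to 1.57), 1.33 in SPARC-high cells (interval 1.05 to 1.67) and 1.21 in other cells (interval 1.12 to 1.30). The difference varied with the depth of the cells. In cells of 2000 to 4000 UMIs the level was 36.7 CPM in challenged and 19.7 CPM in naive cells. At 4000 to 8000 UMIs it was 33.6 and 23.1 CPM, and at 8000 to 16000 UMIs 27.2 and 16.9 CPM. Above 16000 UMIs it was 11.6 and 10.4 CPM. At 1000 to 2000 UMIs it was 41.3 CPM in both, and below 1000 UMIs it was lower in challenged cells, at 31.7 and 44.5 CPM. The shares of cells with a UMI differed little after thinning. Only cells with at least 1000 UMIs were thinned, to 1000 UMIs each, which left out 1066 challenged and 2683 naive cells. Of the thinned cells, 2.93% of challenged (interval 2.63 to 3.26) and 2.70% of naive ones (interval 2.42 to 3.00) held a UMI. Without thinning, 1874 of 12524 challenged and 1365 of 14840 naive cells did. Thinned by class, the shares were 1.14% of challenged and 1.07% of naive PPO-high cells, and 4.08% and 3.73% of cathepsin-high cells. Other cells had 2.75% and 2.68%. In SPARC-high cells the order was reversed, at 1.95% (interval 1.09 to 3.19) and 2.01% (interval 1.42 to 2.76). In cells with every marker share below that of all cells, the ratio without thinning was 1.10 (interval 0.996 to 1.22). Within clusters SPEXI_LOCUS78 was higher in the challenged cells of 12 and lower in those of 7 clusters with at least 20 UMIs. In cluster 3 the ratio was 0.877 (interval 0.665 to 1.17) and in cluster 0 it was 1.24 (interval 0.844 to 1.81), and cluster 3, with the higher level, held the largest part of the challenged cathepsin-high cells.

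SPEXI_LOCUS4684 had 5.74 CPM in challenged cells (542 UMIs) and 5.59 CPM in naive cells (454 UMIs), a ratio of 1.03 (interval 0.904 to 1.17). In cathepsin-high cells, where it was high, the ratio was 0.857 (interval 0.712 to 1.03). MyD88 had 27.4 CPM in challenged and 28.0 CPM in naive cells, and its ratio of 0.981 (interval 0.927 to 1.04) lay close to 1 in every class, between 0.958 and 1.14. Single clusters departed from this. SPEXI_LOCUS4684 had 7.45 CPM in challenged and 1.34 CPM in naive cells of the SPARC-rich cluster 4, a ratio of 5.55 (interval 2.62 to 13.5), and 1.82 and 8.68 CPM in cluster 9, a ratio of 0.209 (interval 0.0531 to 0.604). MyD88 had 25.5 CPM in challenged and 15.7 CPM in naive cells of cluster 0, a ratio of 1.63 (interval 1.08 to 2.47), but 18.2 and 31.7 CPM in cluster 3, a ratio of 0.574 (interval 0.370 to 0.902). The intervals over all cells leave room for small differences that counting could not show.

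Pelle had 26.3 CPM in challenged cells (2483 UMIs) and 22.0 CPM in naive cells (1789 UMIs), a ratio of 1.19 (interval 1.12 to 1.27). Its ratio was 1.06 in SPARC-high cells (interval 0.866 to 1.29) and largest in cathepsin-high cells, at 1.71 (interval 1.27 to 2.32). The muscle transcripts moved the other way in the same class. Their challenged over naive ratios were 0.0514 for troponin T, 0.0795 for troponin I and 0.1704 for myosin regulatory light chain 2. Most of the naive UMIs of each muscle gene there lay in a single cell, as given above. No naive cathepsin-high cell held more than 4 of the 65 UMIs of Pelle in that class. The part of the muscle transcripts in the ratio of Pelle was not tested. Among the cathepsin-rich clusters, cluster 0 had 24.6 CPM in challenged and 11.4 CPM in naive cells, and its ratio was 2.16 (interval 1.38 to 3.45). Cluster 3 had 11.4 CPM in challenged and 9.34 CPM in naive cells, with a ratio of 1.22 (interval 0.596 to 2.76). Cluster 19, a cathepsin-rich cluster of 438 challenged cells and no naive ones, had 50.05 CPM, and without it the log2 ratio of the class was 0.61 in place of 0.77. Pelle was also higher in the SPARC-rich cluster 1, with a ratio of 1.74 (interval 1.49 to 2.02), and in cluster 15 with 2.51 (interval 1.79 to 3.59), and lower in cluster 24 with 0.480 (interval 0.267 to 0.838), cluster 13 with 0.516 (interval 0.338 to 0.812) and cluster 5 with 0.792 (interval 0.645 to 0.967). Over the 18 clusters with at least 20 UMIs it was higher in challenged cells of 12 and lower in those of 6, with intervals above 1 in 8 and below 1 in 3. Doublet calls covered 7.21% of challenged and 63.9% of naive cells of cluster 13, and 0.752% and 73.2% of those of cluster 24.

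SPEXI_LOCUS11477 was lower in the challenged library, with 18.5 CPM in challenged cells (1750 UMIs, interval 17.7 to 19.4) and 28.4 CPM in naive cells (2304 UMIs, interval 27.2 to 29.5), a ratio of 0.653 (interval 0.613 to 0.695). It was the only 1 of the 7 genes past 1.5-fold over all cells. In the same comparison 21.1% of all genes were at least 1.5-fold lower in the challenged library and 6.53% at least 1.5-fold higher, so that a lower level of this size was common. SPEXI_LOCUS11478 had a ratio of 0.681 (interval 0.558 to 0.830), from 1.94 CPM in challenged and 2.84 CPM in naive cells. With the edgeR TMM factor, the log2 ratio of SPEXI_LOCUS11477 was -0.52 in place of -0.61 and 0 of the 7 genes were past 1.5-fold. The median log2 ratio was 0.04 over the 7 genes and -0.08 over all 10574 genes with at least 20 UMIs.

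The make-up of the libraries moved with the level of SPEXI_LOCUS11477. Cluster 6, which held 1707 challenged and 24 naive cells and had SPARC transcripts at 2.31 times the level of all cells, had 2.31 CPM of this gene in challenged cells and had 1276 of its challenged cells in the other class. What part it had in the ratio was not tested beyond leaving it out. Without cluster 6 the log2 ratio was -0.40 in place of -0.61 and no gene of the 7 was past 1.5-fold. With the 22 clusters that had at least 50 cells in both libraries weighted alike in each library, the ratio was 0.849. The weight of a cluster was its UMIs pooled over both libraries, and without these weights the same clusters gave a ratio of 0.731. In unmarked cells, where all 3 marker shares were below those of all cells, it was 0.685 (interval 0.641 to 0.733), from 32.8 CPM in challenged and 47.8 CPM in naive cells, and 0 of the 7 genes were past 1.5-fold there, against 5.61% of genes higher and 22.2% lower. Single clusters went both ways. The level was lower in challenged cells of 10 and higher in those of 7 clusters with at least 20 UMIs, with a median ratio of 0.834. Cluster 8, with 26.4 CPM in challenged and 36.4 CPM in naive cells, had a ratio of 0.723 (interval 0.634 to 0.826), and cluster 5 a ratio of 0.822 (interval 0.713 to 0.945), whereas cluster 23 had 1.69 (interval 1.24 to 2.32).

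Within classes, few of the genes passed 1.5-fold. In PPO-high cells 1 of 4 was higher, SPEXI_LOCUS78 at 1.51, and 0 were lower, against 25.2% and 5.34% of genes. In cathepsin-high cells 1 of 5 was higher, Pelle, and 1 lower, SPEXI_LOCUS11477 at 0.658 (interval 0.441 to 0.979), against 10% and 9.63% of genes. In SPARC-high cells 0 of 5 were higher and 0 lower, against 13.4% and 15.8% of genes. In other cells 0 of 7 were higher and 2 lower, SPEXI_LOCUS11477 at 0.619 (interval 0.581 to 0.661) and SPEXI_LOCUS11478 at 0.666 (interval 0.542 to 0.818), against 6.42% and 22.3% of genes. The intervals for SPEXI_LOCUS78 in PPO-high cells and SPEXI_LOCUS11477 in cathepsin-high cells reach almost to 1. The clusters that made up a class also differed between the libraries, since cluster 6 held 51.8% of challenged SPARC-high cells and cluster 1 held 59.4% of naive ones.

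**Figure D5:**
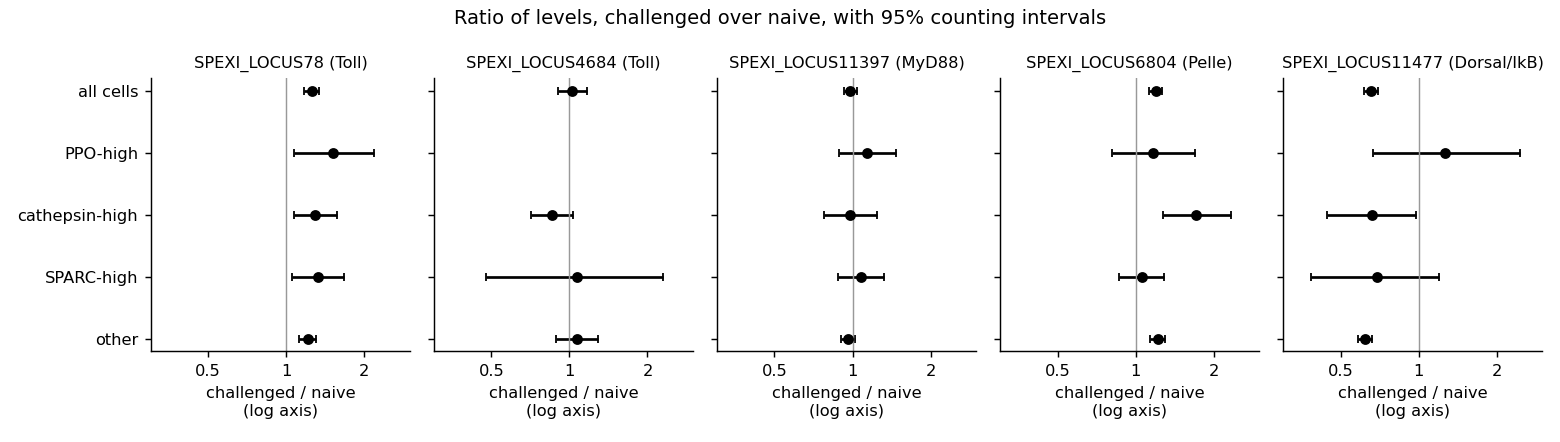
Ratio of the level in challenged cells to that in naive cells for 5 genes, over all cells and within each class, on a log axis with exact 95% counting intervals, for classes with at least 20 UMIs of the gene. SPEXI_LOCUS78 lies above 1 in every class, Pelle stands out in cathepsin-high cells at 1.71, and SPEXI_LOCUS11477 is at 0.653 over all cells and 0.619 in the other class.

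The genes before and after the intracellular pathway were taken from a list of 9. Of the 8 with at least 20 UMIs, 5 were at least 1.5-fold higher in the challenged library, 0 were at least 1.5-fold lower and 3 lay between, where 6.53% of all genes were higher and 21.1% lower by that fold. The 5 were the small PGRPs SPEXI_LOCUS6460, SPEXI_LOCUS12275 and SPEXI_LOCUS12278 and the antimicrobial peptide genes cecropin B and cecropin A1, which in Drosophila are targets of several immune pathways. The list was chosen with earlier results of these data known. SPEXI_LOCUS6460 had 59.1 CPM in challenged and 1.82 CPM in naive SPARC-high cells, 32.4 times as much (interval 20.7 to 53.7), and 35.7 and 3.17 CPM in cathepsin-high cells, 11.3 times as much (interval 6.90 to 19.6). Cecropin B (SPEXI_LOCUS6878) had 29392 CPM in challenged and 1961 CPM in naive SPARC-high cells, while SPEXI_LOCUS11477 had 3.08 and 4.47 CPM and SPEXI_LOCUS11478 had 0.324 and 0.456 CPM there. Spodoptericin (SPEXI_LOCUS9978), another antimicrobial peptide gene, was lower over all cells, with 1119 CPM in challenged and 1421 CPM in naive cells and a ratio of 0.787 (interval 0.781 to 0.794). Its ratio was 0.703 in other cells (interval 0.697 to 0.709) and 0.633 in SPARC-high cells (interval 0.574 to 0.699), where it was the 1 gene of the list at least 1.5-fold lower, against 2.07 in cathepsin-high cells (interval 1.99 to 2.16), with 1279 CPM in challenged and 617 CPM in naive cells. The β-1,3-glucan receptor had 11 UMIs in the challenged library and 6 in the naive library.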

How the data were processed

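The authors aligned the 10x reads with Cell Ranger (7.2.0 in the file headers) and deposited UMI counts, not normalized, of each gene in each called cell of 1 challenged and 1 naive library. The submitters' processing notes also name STAR 2.7.10a, Bowtie2 2.4.5 and Seurat 4.0. The genome build is not given in the sources used here. The mitochondrial filter of the study was not applied.

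Cells with 200 to 6000 genes were kept, which removed 6 challenged and 26 naive cells. UMIs were summed over cells and scaled to CPM, with exact Poisson intervals, exact conditional intervals for ratios and Clopper-Pearson intervals for shares, all at 95%. No test was possible with 1 library per group, and a gene counted as called past 1.5-fold between groups or 2-fold between classes, from at least 20 UMIs. Clusters came from scanpy 1.11.5 (5000 variable genes, 30 components, 20 neighbours, Leiden resolution 0.8, the 8 genes left out). Scrublet called 194 challenged cells (1.55%) and 432 naive cells (2.91%) as doublets, against 10.0% and 11.9% expected, which were left in, so that doublets can remain. Cells holding a pair of genes were set against the product of the shares within depth bands limited at 1000, 2000, 4000, 8000 and 16000 UMIs.

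The genes named are the 8 loci, 9 other pathway genes, and for each locus the genes most like it over clusters. Only 2 such genes are printed, because the files give no names for them. The loci and lists were chosen with earlier results of these data known. Gene names were taken from the study, since the count tables number genes only. Computations used Python 3.11.15, scipy 1.17.1 and edgeR 4.0.16 (TMM factor only). Intervals and ratios were tested on simulated data for 10574 genes of the challenged over naive comparison, and 95.3% of the intervals held the ratio simulated. The simulated counts were Poisson sums per library, as the intervals assume. This coverage therefore checks the computation only and does not measure spread between cells or larvae.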

Additional observations from a re-analysis of the deposited data

How the results depend on the processing

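No value past a fold limit as reported changed its direction under the alternatives run. Of the values recomputed for the main comparisons, 171 moved by less than their counting interval and 61 by more, and of those for single classes, shares and pairs 522 moved by less and 78 by more. The cause was not tested. No paired analysis was possible because each group is 1 library and the labels carry no replicate numbers. Ratios and folds are given as log2 values. The challenged over naive ratio of SPEXI_LOCUS78, 0.32 as reported, was 0.14 with each cell given the same weight, 0.13 thinned to 1000 UMIs, 0.42 with the edgeR TMM factor and 0.17 without cluster 6. That of SPEXI_LOCUS4684, 0.04 as reported, was 0.27 with equal cell weight, 0.23 in cells with at least 500 genes and 0.37 thinned. SPEXI_LOCUS4652, 0.14 as reported, had -1.13 with equal cell weight and 1.03 with clusters weighted alike, and MyD88 (SPEXI_LOCUS11397), -0.03 as reported, had 0.071 with TMM. Pelle, 0.25 as reported, had 0.12 with equal cell weight, 0.10 thinned, 0.35 with TMM, 0.37 with clusters weighted alike and 0.16 without cluster 6. SPEXI_LOCUS11477, -0.61 as reported, had -0.76 thinned, -0.52 with TMM, -0.24 with clusters weighted alike and -0.40 without cluster 6, and SPEXI_LOCUS11478, -0.55 as reported, had -0.85 thinned and -0.24 with clusters weighted alike.

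The fold of cathepsin-high over all other cells for SPEXI_LOCUS78 was 0.59 in challenged and 0.25 in naive cells with equal cell weight, 1.42 and 1.39 without the 50 most abundant genes, 0.67 and 0.60 thinned, and 1.11 in naive cells with at least 500 genes. That of SPEXI_LOCUS4684 was 2.58 in challenged and 3.35 in naive cells with equal cell weight, 3.84 and 4.17 without the 50 most abundant genes, and 3.79 and 3.94 with classes from clusters at either 3 or 1.5 times. The fold of the other class for SPEXI_LOCUS11477, 2.40 in challenged and 2.79 in naive cells as reported, was 2.82 in challenged cells with equal cell weight, 2.81 and 3.07 with a class limit of 2 times, 3.14 and 3.27 with classes from clusters at 1.5 times, and in naive cells 2.42 with a limit of 5 times and 3.07 with classes from clusters at 3 times.

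The number of genes past 1.5-fold between the libraries, 1 as reported, was 2 with equal cell weight, 2 without the 50 most abundant genes, 2 with at least 500 genes per cell, 3 thinned, 0 with TMM, 0 without cluster 6, 3 at the lower of the other fold limits and 0 at 2-fold. The number at least 2-fold higher in cathepsin-high cells, 1 in each library as reported, was 2 in challenged and 2 in naive cells without the 50 most abundant genes, 2 and 3 with at least 500 genes per cell, 2 and 2 at a limit of 1.5-fold, and 2 in challenged cells with classes from clusters at 3 or 1.5 times. The number in challenged SPARC-high cells, 0 as reported, was 1 with classes from clusters at 3 times, and that in naive PPO-high cells, 0 as reported, was 1 when thinned. Leaving out cluster 6, cluster 19 or shared barcodes, weighting clusters alike, unmarked cells and classes from clusters at 1.5 times were chosen after seeing the data.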
